A study of Ambystoma mexicanum with 12 samples.

Results

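MYOG, MYF5 and ANKRD1 are muscle genes that were followed through the healing of axolotl skin. The set was made of every probe set whose gene symbol in the platform annotation was MYOG, MYF5 or ANKRD1. It held 3 probe sets, 1 for each gene (axo08256-f_at for MYOG, axo11216-f_at for MYF5 and axo13739-f_at for ANKRD1), of 20035 probe sets that were not controls and of 8639 named genes. These genes were chosen by their measured levels in these wound arrays, so their own levels and changes are given as a description, with no test. RNA from full thickness skin punch biopsies of adult white axolotls was hybridised to 12 single-colour Affymetrix arrays made for this species. The 4 groups, each of 3 arrays, were intact skin of uninjured animals and wounds taken 2, 14 or 21 days post injury (dpi). The methods of the array experiment name no transgene, give an anaesthetic (p-amino benzocaine) ahead of the punch, and describe the animals as adult males, with 3 separate animals as the source of the samples. A treatment text in the labels conflicts with this, since it tells of ivermectin injected into the spinal cord of small animals, removal of a piece of the cord and pooling of animals for each array, and the free-text label of the 14 dpi arrays says 7 days. The titles and source names were followed here, and the sources differ on whether animals were pooled for an array.

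MYF5 and MYOG belong to the family of basic helix-loop-helix transcription factors that commit cells to skeletal muscle and switch on the genes of the contractile apparatus. MYF5 acts early, in muscle progenitors and myoblasts, and MYOG acts later, when myoblasts stop dividing and fuse. ANKRD1, also called CARP, is an ankyrin repeat protein that binds titin in the sarcomere and shuttles to the nucleus. It is known from mammals as a gene switched on in stretched or damaged muscle, and as a target of the co-activator YAP in many other cell types.

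The axolotl RefSeq table of assembly UKY_AmexF1_1 lists all 3 genes. MYF5 lies there next to MYF6, another member of its family, MYOG lies between genes that include ADORA1 and PPFIA4, and ANKRD1 lies between PCGF5 and RPP30. No probe set carries the symbol MYF6 or MYOD1 in the annotation used here, so MYOG and MYF5 were the members of the family that could be followed.

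Values are log2 expression levels, on which a difference of 1 is a doubling. The 12 arrays had closely matched distributions, with lower quartiles between 4.04 and 4.11 and medians between 5.52 and 5.61, and Pearson correlations between arrays ran between 0.924 and 0.994 across probe sets. In uninjured skin the epidermal gene EPCAM averaged 13.15 and the dermal gene COL1A1 11.30. Markers of dermal fibroblasts were much lower at 2 dpi, with a mean centred level of -2.25 against 0.27 in uninjured skin. Arrays carry no count of reads, so the number of arrays sets the precision. With 3 arrays against 3, an exact permutation test of a single gene could not go below p = 0.1, and every adjusted p below comes from limma fitted across all 20035 probe sets, with Benjamini-Hochberg adjustment. Such p-values measure the spread between these arrays, which may be partly technical. In RNA from whole biopsies, fewer cells of a type and less RNA per cell cannot be told apart.

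ANKRD1 was the brightest and most variable of the set. Its mean over the 12 arrays was 8.41, against 5.01 for MYF5 and 4.99 for MYOG, although levels of different probe sets are not a measure of which transcript is more abundant. The arrays spanned 6.43 log2 units for ANKRD1, 3.15 for MYOG and 2.31 for MYF5. A wider span than that of ANKRD1 was found for 0.334% of all probe sets, than that of MYOG for 3.44%, and than that of MYF5 for 6.82%. All 3 genes had their lowest array at 2 dpi and their highest array at 21 dpi.

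**Figure D1:**
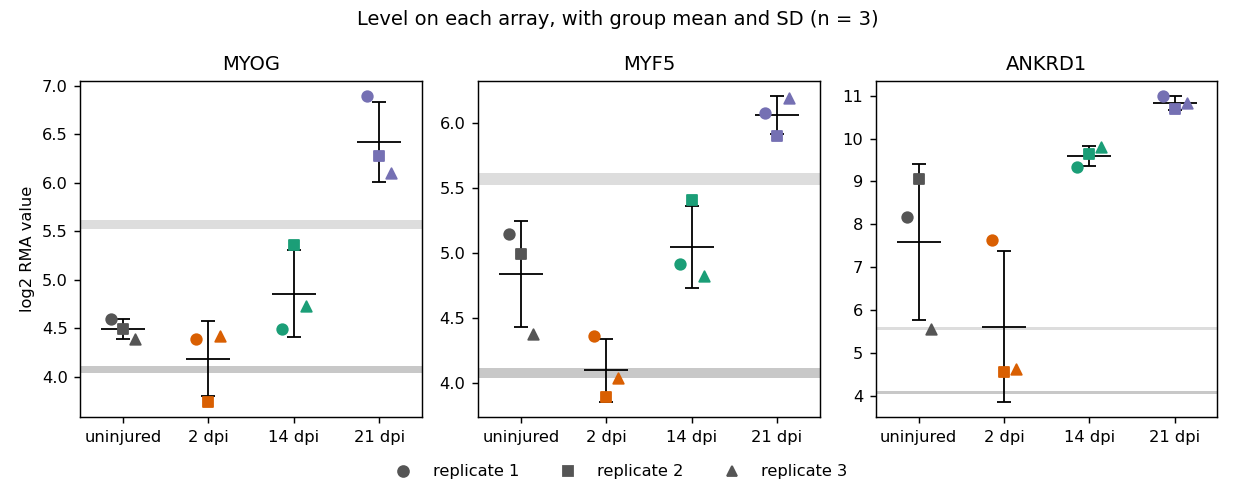
Log2 expression level of MYOG, MYF5 and ANKRD1 (y axis, 1 panel a gene) on each of the 3 arrays at each time (x axis, uninjured to 21 dpi). Points are arrays, bars are group means with SD, and the grey bands span the lower quartiles and the medians of the 12 arrays. The 21 dpi points lie above every other array of the same gene, and the uninjured and 2 dpi points of ANKRD1 are widely spread.

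MYF5, the early factor, gave 5.14, 4.99 and 4.37 in the 3 uninjured arrays. It gave 4.36, 3.89 and 4.03 at 2 dpi, 4.91, 5.40 and 4.82 at 14 dpi, and 6.08, 5.90 and 6.19 at 21 dpi. The 2 dpi arrays were the lowest and the 21 dpi arrays the highest, with no overlap between either of these groups and any other. The step at 2 dpi was narrow at its edge, because the highest 2 dpi array (4.36) and the lowest uninjured array (4.37) nearly touched. The group means were 4.83 ± 0.41 in uninjured skin, 4.09 ± 0.24 at 2 dpi, 5.05 ± 0.31 at 14 dpi and 6.06 ± 0.15 at 21 dpi (SD, n = 3 each).

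MYOG, the differentiation factor, gave 4.60, 4.49 and 4.39 in uninjured skin. It gave 4.39, 3.74 and 4.43 at 2 dpi, 4.49, 5.35 and 4.73 at 14 dpi, and 6.89, 6.28 and 6.10 at 21 dpi. The uninjured, 2 dpi and 14 dpi arrays lay close together, apart from the second 2 dpi array, which was low, and the second 14 dpi array, which was high. All 21 dpi arrays stood above them. The means were 4.49 ± 0.10 in uninjured skin, 4.19 ± 0.39 at 2 dpi, 4.86 ± 0.45 at 14 dpi and 6.42 ± 0.42 at 21 dpi (SD, n = 3 each). In uninjured skin MYOG ranked between the 31.1 and 35.2 percentiles of the probe sets of its array, a range in which many probe sets lie near background, and at 21 dpi it ranked between 56.7 and 65.8.

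ANKRD1 gave 8.16, 9.07 and 5.55 in uninjured skin. It gave 7.64, 4.56 and 4.63 at 2 dpi, 9.33, 9.64 and 9.80 at 14 dpi, and 10.99, 10.68 and 10.83 at 21 dpi. The third uninjured array was low and the first 2 dpi array was high for their groups, so these groups overlapped. The 14 and 21 dpi arrays were tight. The means were 7.59 ± 1.83 in uninjured skin, 5.61 ± 1.76 at 2 dpi, 9.59 ± 0.24 at 14 dpi and 10.83 ± 0.15 at 21 dpi (SD, n = 3 each). At 21 dpi ANKRD1 ranked above 94.9% of the probe sets on every array, and in the third uninjured array it was at the 49.8 percentile.

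At 2 dpi, the early wound, the 3 genes were at or below the level of uninjured skin. The Log2-fold change of 2 dpi over uninjured was -0.31 (SE 0.27) for MYOG, -0.74 (SE 0.22) for MYF5 and -1.98 (SE 0.91) for ANKRD1. The arrays did not overlap for MYF5, which was lower, and overlapped for MYOG and ANKRD1. Among all probe sets, 11.6% were lower without overlap and 14.9% were higher without overlap in this comparison. With the mean level of the contractile genes of each array as a covariate, the Log2-fold changes were 0.17 for MYOG, -0.10 for MYF5 and 0.40 for ANKRD1.

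At 14 dpi ANKRD1 alone of the 3 stood clear of uninjured skin. Its Log2-fold change of 14 dpi over uninjured was 2.00 (SE 0.91), and all 14 dpi arrays were above all uninjured arrays, which held for 13.0% of all probe sets. The change was 0.98 without the third uninjured array and 2.74 without the second. MYOG (0.37, SE 0.27) and MYF5 (0.21, SE 0.22) overlapped with uninjured skin. Without the second 14 dpi array the MYOG change was 0.12, and without the third uninjured array the MYF5 change was -0.02.

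At 21 dpi all 3 genes were higher than in uninjured skin, with no overlap between the arrays, which held for 16.1% of all probe sets. ANKRD1 was 9.45-fold higher (Log2-fold change 3.24, SE 0.91), MYOG 3.81-fold (1.93, SE 0.27) and MYF5 2.33-fold (1.22, SE 0.22). A larger rise than that of ANKRD1 was seen for 0.135% of probe sets, than that of MYOG for 0.724%, and than that of MYF5 for 2.04%. The change of ANKRD1 depended on which uninjured arrays were used, at 2.22 without the third and 3.98 without the second. Leaving out any single array kept the change of MYOG between 1.69 and 2.09 and that of MYF5 between 0.99 and 1.38.

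The steps between wounds are given as a description. From the 2 dpi to the 14 dpi wound the Log2-fold change of 14 dpi over 2 dpi was 3.98 for ANKRD1, 0.95 for MYF5 and 0.67 for MYOG, with all 3 higher without overlap against 12.3% of all probe sets. The Log2-fold change of 21 dpi over 14 dpi was 1.56 (SE 0.27) for MYOG, 1.01 (SE 0.22) for MYF5 and 1.24 (SE 0.91) for ANKRD1. Each SE is pooled over all 4 groups, so that of ANKRD1 is the same in every comparison. It carries the wide SD of uninjured skin (1.83) and 2 dpi (1.76), while the SD was 0.24 at 14 dpi and 0.15 at 21 dpi. All 3 were again higher without overlap, against 6.45% of all probe sets. Over the whole span, 21 dpi over 2 dpi, ANKRD1 was 37.3-fold higher, MYOG 4.72-fold and MYF5 3.90-fold, with no overlap, against 18.3% of all probe sets. The larger of the 2 steps was the earlier one for ANKRD1 and the later one for MYOG, while the steps of MYF5 were nearly equal. The steps span unequal intervals, 2 to 14 dpi and 14 to 21 dpi, and the difference between them was not tested. With the contractile covariate the 21 dpi over 14 dpi change was 0.07 for ANKRD1, and the 21 dpi over 2 dpi change was 2.84. The covariate values given here are those that moved by more than the SD between arrays. With it the 14 and 21 dpi over uninjured changes of all 3 genes moved by less than that SD.

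Muscle RNA varied between biopsies, and the level of the 3 genes was set beside it. The list of contractile and excitation genes of adult muscle had 59 measured members of 94. Their mean level, centred gene by gene, was 1.41, 1.37 and -0.53 in uninjured skin, -0.30, -1.59 and -1.88 at 2 dpi, -0.60, 0.74 and -0.85 at 14 dpi, and 1.26, 0.21 and 0.76 at 21 dpi. The third uninjured array therefore held much less contractile RNA than the other uninjured arrays, and the second 14 dpi array held more than the other 14 dpi arrays. The group mean was 0.75 at 21 dpi and 0.75 in uninjured skin. Of the 59 genes, 1 was higher and 1 lower at 21 dpi by limma (3 and 1 before adjustment at 0.05), with a median Log2-fold change of -0.03 beside -0.01 for all probe sets. Over all probe sets 6.62% were higher and 5.99% lower in this comparison. The count of 2 contractile genes was 9 without the third uninjured array and 1 without the first or the third 21 dpi array. The gene that rose was FABP3, a fatty acid carrier of muscle and other cells (1.65, adjusted p = 0.0165, lost when any of 2 arrays was left out), and the gene that fell was ATP2A2, the calcium pump of slow and heart muscle and of many other cells (-1.01, adjusted p = 0.000942).

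**Figure D2:**
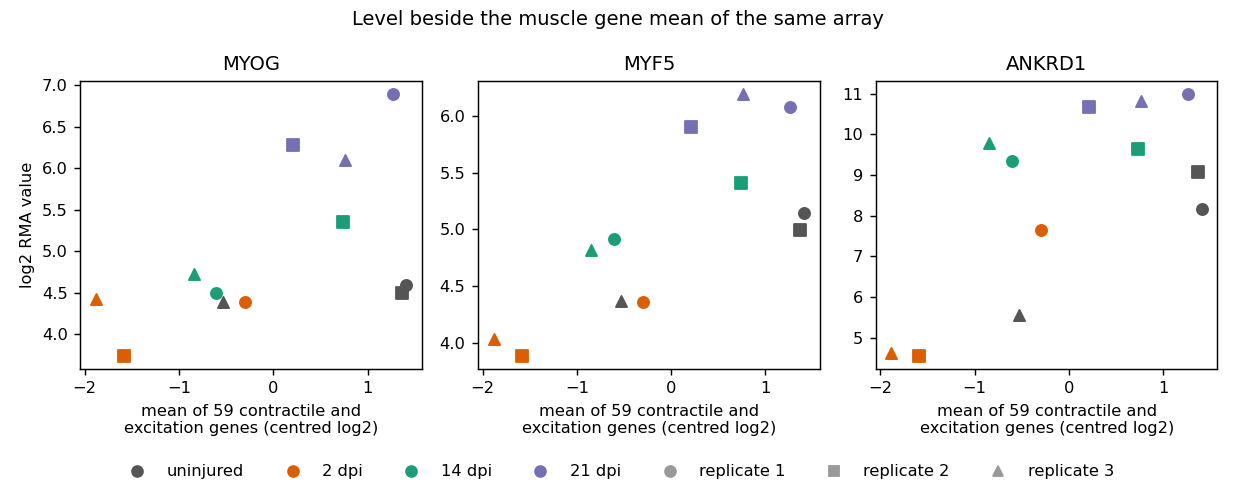
Log2 level of MYOG, MYF5 and ANKRD1 (y axis, 1 panel a gene) against the mean centred log2 level of the 59 contractile and excitation genes of the same array (x axis). Each point is 1 array, coloured by time. The first 21 dpi array (1.26) and the first and second uninjured arrays (1.41 and 1.37) lie at similar contractile levels, and the 21 dpi points are higher for each gene.

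Single arrays of similar contractile level are set side by side here as a description. The first 21 dpi array, at 1.26 on the contractile mean, had 6.89 for MYOG, 6.08 for MYF5 and 10.99 for ANKRD1. The first uninjured array, at 1.41, had 4.60 for MYOG, 5.14 for MYF5 and 8.16 for ANKRD1. The second uninjured array, at 1.37, had 4.49, 4.99 and 9.07 in the same order. At the low end lay the first and the third 14 dpi arrays, at -0.60 and -0.85, and the third uninjured array, at -0.53. There MYOG was at 4.49 and 4.73 in the 14 dpi arrays, against 4.39 in the uninjured one. MYF5 was at 4.91 and 4.82, against 4.37, and ANKRD1 at 9.33 and 9.80, against 5.55. This gap between the 14 dpi arrays and the uninjured one was wide for ANKRD1 and small for MYOG. The first 2 dpi array, at -0.30, had 4.39 for MYOG, 4.36 for MYF5 and 7.64 for ANKRD1. The part of muscle content in these levels was not tested. The Pearson correlation of each gene with the contractile mean over the 12 arrays was 0.559 for MYOG, 0.752 for MYF5 and 0.695 for ANKRD1. With the mean of 17 dermal fibroblast markers it was 0.754, 0.899 and 0.868 in the same order of genes, and with that of 24 epidermal markers -0.861, -0.880 and -0.784. High values were not particular to fibroblasts. Smooth muscle and pericyte markers gave 0.679, 0.844 and 0.763, and endothelial markers 0.624, 0.833 and 0.764. Embryonic and differentiation genes of muscle gave 0.757, 0.882 and 0.780, and heart muscle markers 0.634, 0.798 and 0.742. Myeloid markers gave -0.077, -0.274 and -0.206. All are given only as a description, because the arrays fall into 4 groups and the values share each array.

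CKM, the muscle creatine kinase, TTN, the giant sarcomere protein to which ANKRD1 binds, and TNNC2, the calcium sensor of fast fibres, did not pass the test at 21 dpi over uninjured. Their Log2-fold changes were -0.08 for CKM, -0.14 for TTN and 0.35 for TNNC2, with limma adjusted p of 0.972, 0.965 and 0.87 in that order. PVALB, the calcium buffer of fast fibres, had 1.13 on its brightest probe set (adjusted p = 0.583), while a dimmer one of its 4 probe sets was higher (2.33, adjusted p = 0.00489). Counts of genes use the brightest probe set of each. At 2 dpi, 16 of the 59 contractile genes were lower and 0 higher by limma (34 and 3 at an unadjusted p under 0.05), with a median Log2-fold change of -1.81 beside 0.02 for all probe sets, of which 5.42% were higher and 3.86% lower. This count was 32 without the third uninjured array, 9 without the first and 7 without the second, and it was 8 or 9 without the second or the third 2 dpi array.

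Embryonic and differentiation genes of muscle, which include targets of the family in mammals, had 31 measured members of 49. Among all probe sets 6.62% were higher and 5.99% lower at 21 dpi over uninjured. Of the 31 genes 2 were higher and 0 lower by limma (4 and 0 at an unadjusted p under 0.05), with a median of 0.21. Both are also expressed outside muscle: VIM, the intermediate filament of mesenchymal cells (0.65, SE 0.11, adjusted p = 0.00462), and CSRP1, a LIM protein of smooth muscle (0.70, SE 0.10, adjusted p = 0.0032). At 21 dpi over 2 dpi 16 were higher and 0 lower, with 20 and 0 at an unadjusted p under 0.05 and a median of 0.62, beside 9.39% higher and 12.4% lower among all probe sets.

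MYL4, a myosin light chain of embryonic muscle and the atrium in mammals, gave 10.25, 10.98 and 7.66 in uninjured skin, 5.97, 5.31 and 5.08 at 2 dpi, 6.49, 7.43 and 5.32 at 14 dpi, and 10.64, 9.21 and 9.90 at 21 dpi. It was low in both earlier wounds and lay within the uninjured range at 21 dpi. Its Log2-fold change over uninjured was -4.17 at 2 dpi (limma adjusted p = 0.0099) and -3.21 at 14 dpi (adjusted p = 0.0369), and the 14 dpi call was lost when any of 6 arrays was left out. CHRNA1, a subunit of the muscle acetylcholine receptor and a classic target of MYOG in mammals, gave 5.72, 5.63 and 4.95 in uninjured skin, 4.61, 4.01 and 4.66 at 2 dpi, 4.70, 5.17 and 4.61 at 14 dpi, and 6.32, 5.61 and 6.06 at 21 dpi. Its highest arrays were at 21 dpi, but the second of them fell within the uninjured range. It was higher at 21 dpi than at 2 dpi (1.57, SE 0.27, adjusted p = 0.00259) and did not pass the test at 21 dpi over uninjured (0.56, adjusted p = 0.211). CHRNG, the subunit of the embryonic receptor, had 0.00 at 21 dpi over uninjured (adjusted p = 0.996).

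DES, the muscle intermediate filament, gave 12.22, 11.87 and 11.96 at 21 dpi, all above 9.79, 9.64 and 11.30 in uninjured skin. The difference of 1.77 did not pass the test (adjusted p = 0.131), while that of 21 dpi over 2 dpi did (3.14, adjusted p = 0.00976). These are values of its brightest probe set. The dimmer ones had 0.95 and -0.02 at 21 dpi over uninjured (limma adjusted p of 0.622 and 0.947). At 21 dpi over 2 dpi they had 4.39 and -0.01 (adjusted p of 0.0114 and 0.957). ACTC1, the actin of heart and of embryonic muscle, had 2.27 at 21 dpi over uninjured on its brightest probe set (adjusted p = 0.397). Another of its 3 probe sets was lower at 2 dpi (-2.04, adjusted p = 0.0378) and higher at 21 dpi (1.96, adjusted p = 0.0363), calls lost when any of 7 arrays and any of 5 arrays was left out. The remaining one had -1.20 at 2 dpi and -0.25 at 21 dpi (limma adjusted p of 0.239 and 0.847). MYOZ2, a protein of the Z-disc, was lower at 2 dpi than in uninjured skin (-3.01, adjusted p = 0.00714) and had 0.41 at 21 dpi (adjusted p = 0.7). DES is also a smooth muscle gene and was counted in that list too.

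**Figure D3:**
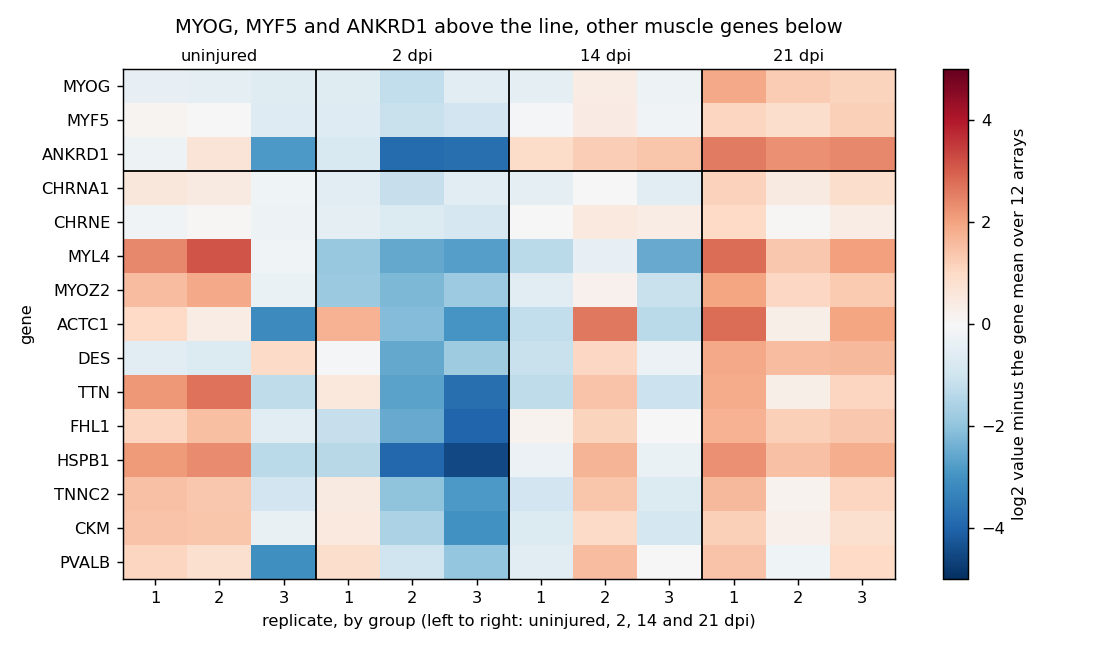
Centred log2 levels of MYOG, MYF5 and ANKRD1 (above the line) and of other named muscle genes (below it) on each of the 12 arrays, in columns ordered by time from uninjured to 21 dpi, with the colour scale in log2 units from the mean of the gene. The 3 genes are high in the 21 dpi columns, and MYL4 and MYOZ2 are high in the first and the second uninjured columns as well.

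Other regulators of the myogenic programme were called in both directions, and the list without MYOG and MYF5 had 55 measured members of 98. At 21 dpi over uninjured 5 were higher and 1 lower by limma (7 and 5 at an unadjusted p under 0.05). Among all probe sets 6.62% were higher and 5.99% lower, and the median of -0.01 was the same as that of all probe sets. At 14 dpi JAG1 and FSTL1 were higher and ID2 lower, beside 4.56% higher and 2.56% lower among all probe sets. At 2 dpi JAG1 and VGLL4 were higher and FSTL1, TCF4, DACH2, FOXK1 and SMYD1 lower, beside 5.42% higher and 3.86% lower among all probe sets. Second, dimmer probe sets of VGLL4, DACH2 and TCF4 did not pass at 2 dpi. They had -0.05, -0.22 and 0.03 (limma adjusted p of 0.909, 0.163 and 0.909). The 2 dpi count of 7 was 2 without the first uninjured array, 3 without the second, and 4 without the second or the third 2 dpi array. Between 21 and 14 dpi no regulator passed limma in either direction (unadjusted p under 0.05 in 6 that were higher and 0 that were lower), where 0.170% of all probe sets did. At 21 dpi over 2 dpi 9 were higher and 8 lower, beside 9.39% higher and 12.4% lower among all probe sets. The sum of 17 was 9 without the first 21 dpi array and 11 without the second or the third 2 dpi array.

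The E proteins TCF4 and TCF12, which pair with MYF5 and MYOG on DNA, were both higher at 21 dpi. TCF4 gave 6.37, 5.99 and 5.99 at 21 dpi, against 5.23, 5.11 and 4.96 in uninjured skin, a Log2-fold change of 1.02 (SE 0.15, limma adjusted p = 0.00258). TCF12 gave 10.01, 9.63 and 9.86 at 21 dpi, against 8.83, 8.42 and 8.15 in uninjured skin, a Log2-fold change of 1.37 (SE 0.24, adjusted p = 0.00609). The arrays did not overlap for either gene, and both calls held with any array left out. Each gene has a second, dimmer probe set that did not pass the test, at 0.05 for TCF4 (adjusted p = 0.815) and 0.08 for TCF12 (adjusted p = 0.867).

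ID2, which holds E proteins in dimers that cannot bind DNA, was lower in the later wounds. It gave 7.22, 7.50 and 8.32 at 14 dpi and 7.84, 7.67 and 7.74 at 21 dpi, against 9.37, 8.92 and 9.61 in uninjured skin. Its Log2-fold change over uninjured was -1.62 at 14 dpi (SE 0.26, limma adjusted p = 0.0054) and -1.55 at 21 dpi (SE 0.26, adjusted p = 0.00472), and it was 0.14 at 2 dpi (adjusted p = 0.816). Its relative ID3 did not pass the test, at -0.59 at 14 dpi (adjusted p = 0.35) and -0.48 at 21 dpi (adjusted p = 0.425).

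The MEF2 factors, which work with the myogenic factors on muscle promoters, did not pass the test at 21 dpi over uninjured: MEF2A had -0.33 (limma adjusted p = 0.297), MEF2C -0.01 (adjusted p = 0.965) and MEF2D -0.23 (adjusted p = 0.223). SIX4, a homeobox factor upstream of the family, had -0.04 and lay below the lower quartile of every array. SMYD1, a muscle methyltransferase counted as both a regulator and a contractile gene, had a Log2-fold change of 0.00 at 21 dpi (SE 0.87, adjusted p = 0.999) and was lower at 2 dpi (-3.35, adjusted p = 0.0378), a call lost when any of 5 arrays was left out. SMYD1 thus returned to the uninjured mean of 7.82 with the contractile genes.

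The other genes of the list called at 21 dpi over uninjured were JAG1, FSTL1 and FGF2. JAG1, a Notch ligand, was higher at 2, 14 and 21 dpi than in uninjured skin (1.16, 1.29 and 1.10, limma adjusted p of 0.00154, 0.00113 and 0.00218). FSTL1, a secreted glycoprotein, was lower at 2 dpi (-0.87, adjusted p = 0.0106) and higher at 14 dpi (1.13, adjusted p = 0.00387) and 21 dpi (1.84, adjusted p = 0.000326). FGF2, a mitogen of myoblasts and fibroblasts, was higher at 21 dpi (1.25, adjusted p = 0.0323), a call lost when any of 5 arrays was left out. All of these genes are also expressed outside muscle.

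**Figure D4:**
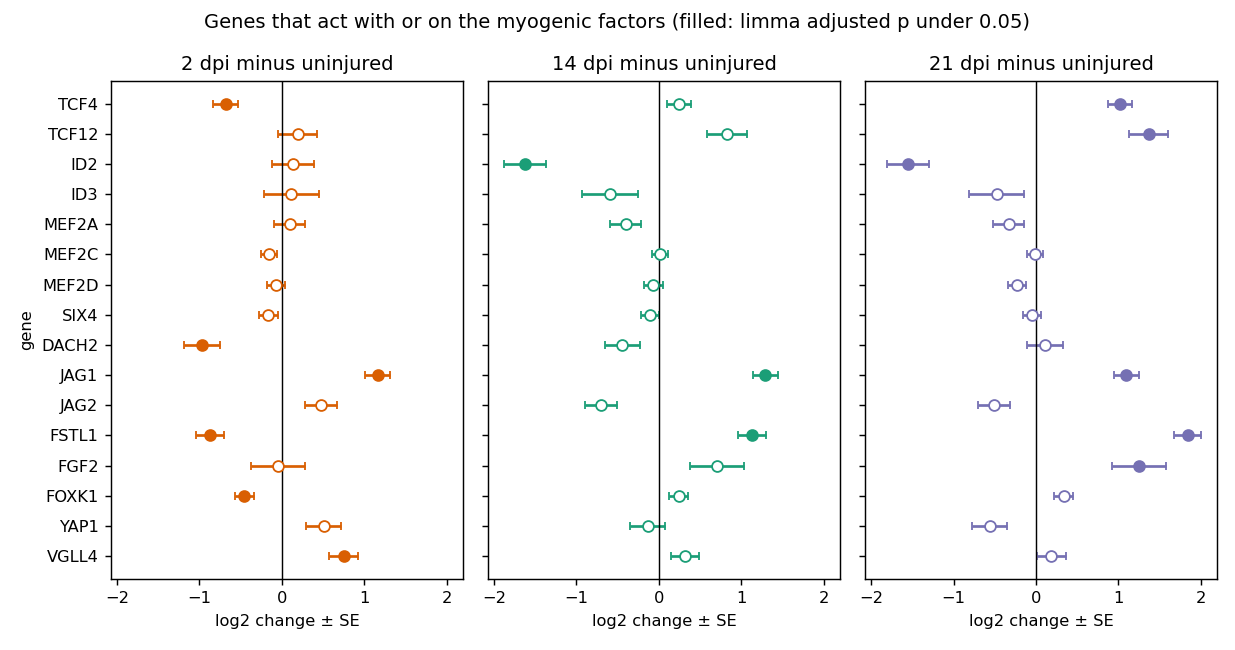
Log2-fold change over uninjured skin (x axis, with SE bars) of named regulators of the myogenic programme (y axis) at 2, 14 and 21 dpi, 1 panel a time, with filled points for a limma adjusted p under 0.05. TCF4 and TCF12 lie right of 0 and ID2 left of it at 21 dpi, and the MEF2 genes and SIX4 lie near 0.

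Satellite cells are the stem cells of muscle, and 16 of 25 genes listed for them were measured. PAX7 and PAX3, their defining factors, have no probe set with that symbol in the annotation used here. CDH15, their cadherin, lay below the lower quartile of every array, at means of 3.34 in uninjured skin and 3.54 at 21 dpi. Against uninjured skin, CXCR4, LMNA and EGFR were higher at 2 dpi, CXCR4 and SDC3 higher and SPRY1 lower at 14 dpi, and CXCR4 higher and EGFR lower at 21 dpi by limma. Shares of all probe sets were 5.42% higher and 3.86% lower at 2 dpi, 4.56% and 2.56% at 14 dpi, and 6.62% and 5.99% at 21 dpi. Calls lost with 1 array left out were SPRY1 (by any of 8 arrays), SDC3 (any of 5), and at 2 dpi EGFR (any of 7), CXCR4 (any of 2) and LMNA (1 array). The gene higher at all times was CXCR4, a chemokine receptor that leucocytes also carry, at 1.44, 1.63 and 1.94 (adjusted p of 0.0172, 0.0124 and 0.00412). EGFR, also a gene of epidermis, was lower at 21 dpi (-0.80, adjusted p = 0.00991).

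ANKRD1 has close relatives among the muscle ankyrin repeat proteins. ANKRD2 lay below the lower quartile of every array, with 3.44, 3.31 and 3.53 at 21 dpi, against 3.88, 3.43 and 3.30 in uninjured skin. No probe set carries the symbol ANKRD23. The ANKRD2 change at 21 dpi was -0.11 (limma adjusted p = 0.676). FHL2, a LIM protein that sits with titin and responds to load, had 0.23 (adjusted p = 0.431).

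The list of titin, stretch and ankyrin repeat partners had 29 measured members of 38. At 2 dpi 6 were higher and 6 lower than in uninjured skin, at 14 dpi 1 was higher and 0 lower, and at 21 dpi 2 were higher and 0 lower (before adjustment 3 and 1), these being PALLD and PDLIM1. The shares of all probe sets were 5.42% higher and 3.86% lower at 2 dpi, 4.56% and 2.56% at 14 dpi, and 6.62% and 5.99% at 21 dpi. The PDLIM1 change was small (0.40, adjusted p = 0.0247), and its call was lost when any of 5 arrays was left out. PALLD, the actin bundling protein palladin, a relative of the ANKRD1 partner myopalladin and a protein of fibroblasts as well as muscle, was higher at every time. It gave 10.54, 10.63 and 10.57 at 2 dpi, 11.61, 11.09 and 11.87 at 14 dpi, and 10.39, 11.03 and 10.74 at 21 dpi, all above 8.46, 7.98 and 6.86 in uninjured skin. Its Log2-fold changes were 2.81 (adjusted p = 0.00121), 3.76 (adjusted p = 0.000335) and 2.95 (adjusted p = 0.00108). ANKRD1 and PALLD thus differed at 2 dpi, where PALLD was high on all arrays and ANKRD1 was low on the second and the third.

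Genes known as targets of YAP and of serum response factor outside this set had 32 measured members of 55, and CCN1 and CCN2 were not among them. Against uninjured skin 1 was higher and 6 lower at 2 dpi (before adjustment 5 and 7), 0 higher and 5 lower at 14 dpi (before adjustment 3 and 7), and 1 higher and 4 lower at 21 dpi by limma (before adjustment 2 and 10). All probe sets had 5.42% higher and 3.86% lower at 2 dpi, 4.56% and 2.56% at 14 dpi, and 6.62% and 5.99% at 21 dpi. The gene higher at 21 dpi was TAGLN, an actin binding protein of smooth muscle (2.10, adjusted p = 0.00351), and the lower ones were CNN1, F3, EGR1 and MYC, of which EGR1 was lost when any of 5 arrays was left out and MYC when any of 2 was. The median change at 21 dpi was -0.07. YAP1 itself had -0.56 at 21 dpi over uninjured (adjusted p = 0.119) and was lower at 21 dpi than at 2 dpi (-1.07, SE 0.21, adjusted p = 0.00579).

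Markers of dermal fibroblasts and of smooth muscle were higher at 21 dpi, as the 3 genes were. The mean centred level of 17 dermal fibroblast markers, of 21 listed, ranged between 0.14 and 0.48 in uninjured skin, -2.80 and -1.54 at 2 dpi, 0.23 and 1.08 at 14 dpi, and 1.26 and 1.63 at 21 dpi. Of these, 10 were lower at 2 dpi, 4 higher at 14 dpi (VIM, COL1A2, COL3A1 and COL5A1) and 7 higher at 21 dpi, COL1A2 among the last (13.00 at 21 dpi, against 9.97 in uninjured skin). Among all probe sets 3.86% were lower at 2 dpi, 4.56% higher at 14 dpi, and 6.62% higher and 5.99% lower at 21 dpi. The 12 measured smooth muscle and pericyte markers ranged between 0.75 and 0.85 at 21 dpi, against 0.42 and 0.61 in uninjured skin, with TAGLN, MYLK, CALD1 and MCAM higher and CNN1 lower by limma. The MYLK call was lost when any of 2 arrays was left out and the MCAM call without 1 array. The fibroblast and smooth muscle arrays at 21 dpi did not overlap with those of uninjured skin, and their part in the levels of MYOG, MYF5 and ANKRD1 was not tested.

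Markers of other cell types were followed on the same arrays. The 24 epidermal markers ranged between -0.62 and -0.14 at 21 dpi, against 0.04 and 0.11 in uninjured skin, with EHF, GRHL3 and CLDN7 lower and 0 higher. The 24 cell cycle genes had 14 lower and 0 higher at 21 dpi, and the 12 myeloid markers had 5 higher (CSF1R, AIF1, CYBB, LCP1 and MARCO) and 0 lower, so they too were higher in these wounds. Among all probe sets 6.62% were higher and 5.99% lower at 21 dpi over uninjured. The calls of CSF1R, AIF1, MARCO, GRHL3 and CLDN7 were each lost when any of 3 or more arrays was left out. None of 14 endothelial markers or of 9 nerve and Schwann cell markers passed limma at 21 dpi, with 1 gene up and 0 down in each list before adjustment. Endothelial markers had a mean centred level of 0.25 in uninjured skin, -0.60 at 2 dpi and 0.31 at 21 dpi. Of them 3 were lower at 2 dpi over uninjured (3.86% of all probe sets) and 4 higher at 21 dpi over 2 dpi (9.39% of all probe sets). The part of these cell types in the levels of MYOG, MYF5 and ANKRD1 was not tested. Of 8 heart muscle markers 0 were higher and MYL7 was lower at 21 dpi over uninjured. Their mean centred level was 0.28 in uninjured skin, -0.59 at 2 dpi, -0.11 at 14 dpi and 0.42 at 21 dpi. At 21 dpi over 2 dpi 2 were higher and 2 lower, beside 9.39% and 12.4% of all probe sets. The heart genes TBX5 and TNNI3 stayed low, at 3.33 and 3.58 at 21 dpi, against 3.25 and 3.67 in uninjured skin.

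**Figure D5:**
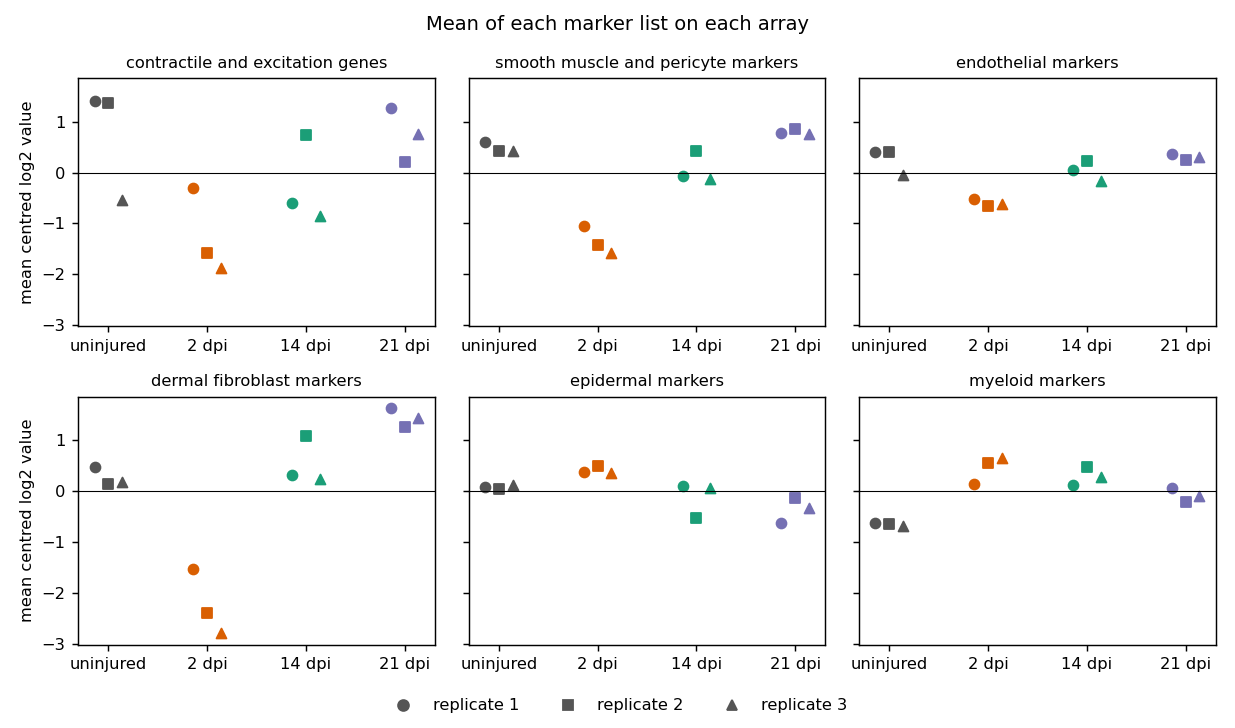
Mean centred log2 level of the contractile list and of lists of cell type markers (1 panel a list, y axis) on each array at each time (x axis). Points are arrays. Dermal fibroblast markers are lowest at 2 dpi, between -2.80 and -1.54, and highest at 21 dpi, between 1.26 and 1.63, and contractile genes are spread within each group.

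The 3 genes ran close to each other over the 12 arrays. The Pearson correlation was 0.916 between MYOG and MYF5, 0.906 between MYF5 and ANKRD1, and 0.777 between MYOG and ANKRD1, whose rank correlation was 0.937. These values describe 12 arrays that fall into 4 groups and were shared by all genes, and they carry no test.

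Among the other 8638 genes, those whose pattern was most like that of MYF5 over the 12 arrays were mostly genes of the extracellular matrix. They were SPON2, a secreted matrix protein (Pearson correlation 0.984), HSPG2, the basement membrane proteoglycan perlecan (0.976), CPZ, a carboxypeptidase (0.969), ASPN, a small proteoglycan (0.966), and BMP1, a procollagen protease (0.965). SPON2 averaged 11.31 at 21 dpi, against 6.84 in uninjured skin. For ANKRD1 they were UHRF2, a ubiquitin ligase (0.980), TMEFF1, a membrane protein (0.953), THBS4, a matrix protein of tendon and muscle (0.944), SEMA6A, a semaphorin (0.938), and HSPG2 (0.937). HSPG2 was thus near both MYF5 and ANKRD1.

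For MYOG the most alike were RHBDD1, a rhomboid protease (0.956), SRPX2, a secreted sushi repeat protein (0.948), ARHGAP28 (0.943), GSN, the actin severing protein gelsolin (0.942), and PMCH, a neuropeptide precursor (0.938). PMCH averaged 4.88 at 21 dpi, against 3.47 in uninjured skin, and GSN averaged 11.12 at 21 dpi, against 10.02 in uninjured skin. None of the genes named for their likeness to MYOG, MYF5 or ANKRD1 belongs to a gene list used here.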

How the data were processed

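Skin RNA was profiled on 12 custom Affymetrix arrays. Per the labels and the study's methods, the authors computed the deposited log2 expression values by robust multi-array average (RMA), which corrects background and normalises across all arrays together. Affymetrix Expression Console is named in the submitters' processing notes, with its version not given in the sources used here. RMA compresses differences near background, where MYOG, MYF5 and ANKRD2 lay on many arrays.

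Of 20080 probe sets, 45 controls were left out and 20035 were tested, 10951 of them with 1 gene symbol and 9084 with none. A linear model of 4 group means was used (limma 3.58.1 under R 4.3.3, moderated by eBayes, 8 residual and 2.43 prior degrees of freedom), with no filter on low values, and p-values were adjusted by Benjamini-Hochberg within each comparison at 0.05. A gene with several probe sets was represented by the one with the highest mean. Standard errors are those of the fit, with the spread of a gene pooled over all 4 groups. The procedure was tested on simulated data. The members and all gene lists were chosen with earlier results of these data known. Named were the 3 genes, 36 symbols of muscle genes and relatives given by name (of which 18 were measured), up to 6 called members per list and comparison with the smallest adjusted p, of which a part is described, and the 5 genes most alike to each of the 3. Genes of the contractile, YAP target and cell type lists, SMYD1 included, were named after their values were seen. The alternatives were 2 other scalings, filters at the 25th percentile and at the median, a trend in eBayes, array weights, fits of only the groups compared, a replicate block, each array left out, the mean of all probe sets of a gene, the contractile mean as a covariate, and stricter thresholds.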

Additional observations from a re-analysis of the deposited data

Results flagged for a closer look

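The changes of MYOG and MYF5 over uninjured skin pointed in opposite directions early and late in healing. MYOG was at -0.308 at 2 dpi and at 1.93 at 21 dpi, and MYF5 was at -0.74 at 2 dpi and at 1.22 at 21 dpi. The 2 dpi change of MYOG had an SE of 0.27, its arrays overlapped with uninjured skin, and it was -0.09 without the second 2 dpi array. With the contractile mean as a covariate the 2 dpi changes were 0.17 for MYOG and -0.10 for MYF5. Every 2 dpi array lay below the uninjured mean of its gene and every 21 dpi array above it. The difference between the times was not tested for these 2 genes, because they were chosen with their levels known.

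3 other genes of the lists turned round by the test, each being called in opposite directions at 2 dpi and later in the same fit. The difference between the times joins those 2 changes, so that it passed limma follows from the choice and adds no support. FSTL1 had -0.868 at 2 dpi, 1.13 at 14 dpi and 1.84 at 21 dpi over uninjured skin, with a Log2-fold change of 14 dpi over 2 dpi of 2.00 (limma adjusted p = 0.0002) and of 21 dpi over 2 dpi of 2.71 (adjusted p = 1.58e-05). TCF4, the E protein, had -0.682 at 2 dpi and 1.02 at 21 dpi, which differed by 1.70 (adjusted p = 6.9e-05). Its second, dimmer probe set did not turn round, with 0.03 at 2 dpi (adjusted p = 0.909) and 0.02 at 21 dpi over 2 dpi (adjusted p = 0.91). The 2 dpi call of TCF4 was lost without the third 2 dpi array or without the first or second uninjured array. EGFR ran the other way, with 0.617 at 2 dpi and -0.799 at 21 dpi, and a change of 21 dpi over 2 dpi of -1.42 (adjusted p = 0.000286). Its 2 dpi call was lost when any of 7 arrays was left out. Groups of 3 arrays were too small for a test of outlying arrays. Arrays that stood apart were described by their values and left out as alternatives.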

How the results depend on the processing

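Over the alternatives, 197 of the changes of MYOG, MYF5 and ANKRD1 over uninjured moved by less than the SD between arrays, 2 moved by more and 2 reversed. Many of the 197 could not move. The trend, the filters, fits of only the groups compared, the replicate block and the mean of probe sets leave these differences of group means unchanged. So does leaving out an array of another group. For ANKRD1 the SD was wide (1.83 in uninjured skin), so large moves also fell within it. With the contractile mean as a covariate, the 2 dpi over uninjured changes were 0.17 for MYOG and 0.40 for ANKRD1, which reversed both, and -0.10 for MYF5. The cause was not tested. With the covariate the 14 and 21 dpi over uninjured changes of MYOG, MYF5 and ANKRD1 moved by less than the SD. With it the 14 dpi over 2 dpi change was 0.62 for MYF5, the 21 dpi over 2 dpi changes were 1.76 for MYOG, 1.32 for MYF5 and 2.84 for ANKRD1, and the 21 over 14 dpi changes were 0.70 for MYF5 and 0.07 for ANKRD1. It cut the regulators called to 1 at 2 dpi and 3 at 21 over 2 dpi, and raised them to 5 at 14 dpi. The contractile count was not run with its own mean as covariate. SMYD1, which is counted among the regulators, is part of that mean. Without both the third uninjured and the second 14 dpi array, an alternative chosen after seeing the data, the MYF5 change at 14 dpi was -0.20. That setting gave 3 regulators at 21 over 14 dpi, and 42, 29, 10, 35 and 14 contractile genes at 2, 14 and 21 dpi over uninjured, 21 over 2 dpi and 21 over 14 dpi.

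Counts of called genes depended on the setting. They cannot be ranked against the levels in this, because several settings can change a count but not a level. In the order 2, 14 and 21 dpi over uninjured, 14 over 2, 21 over 2 and 21 over 14 dpi, the fit used here called 7, 3, 6, 5, 17 and 0 regulators and 16, 4, 2, 2, 23 and 1 contractile genes. Array weights gave 6 and 12 regulators at 14 and 21 dpi and 12 at 21 over 14 dpi, with 36, 26 and 11 contractile genes over uninjured, 41 at 21 over 2 dpi and 23 at 21 over 14 dpi. Fitting only the groups compared gave 2 regulators at 2 dpi and 3 at 14 over 2 dpi, with 8 and 1 contractile genes at 2 and 14 dpi, 1 at 14 over 2 dpi and 0 at 21 over 14 dpi. The filter at the median, which removes MYOG and MYF5, gave 5 regulators at 14 dpi and 0 contractile genes at 21 over 14 dpi. The mean of all probe sets gave 1 contractile gene at 14 over 2 dpi and 0 at 21 over 14 dpi. An adjusted p under 0.01 gave 1 regulator at 2 dpi and 9 at 21 over 2 dpi, with 7, 1 and 1 contractile genes over uninjured, 1 at 14 over 2, 10 at 21 over 2 and 0 at 21 over 14 dpi. A change of at least 2-fold gave 2 regulators at 2 dpi, 3 at 14 over 2 and 11 at 21 over 2 dpi, with 1 contractile gene at 14 over 2 and 0 at 21 over 14 dpi. Single reversals were PDLIM7 with the mean of its probe sets (-0.075 at 2 dpi and 0.23 at 21 over 2 dpi), and with the covariate ACTC1 (4.36 at 2 dpi and -2.09 at 21 over 2 dpi) and PVALB (3.14 and -2.0003). ACTC1 and PVALB are muscle genes themselves. Without the covariate they had -0.53 and -0.30 at 2 dpi, and 2.80 and 1.43 at 21 over 2 dpi, without passing limma. The covariate thus gave them large changes of the opposite sign. The contractile mean itself differed between the groups, at 0.75 in uninjured skin and -1.26 at 2 dpi. The same adjustment was applied to MYOG, MYF5 and ANKRD1.

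Same-numbered arrays did not consistently deviate together, with a correlation over 0.1 in 5 of 18 pairs (-0.65 to 0.48). The check cannot decide whether the numbers pair the arrays, because deviations from means of so few arrays also carry differences between single biopsies. The replicate block gave 2 contractile genes at 14 dpi and 0 at 21 over 14 dpi, and it left every other count of these lists within 1.5 times. Of the calls described above it lost FGF2 at 21 dpi, SDC3 and SPRY1 at 14 dpi, and CHRNA1 and EGFR at 2 dpi.

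With each array left out in turn, the change over uninjured of MYOG lay between -0.43 and -0.09 at 2 dpi, 0.12 and 0.55 at 14 dpi, and 1.69 and 2.09 at 21 dpi. That of MYF5 lay between -0.97 and -0.59, -0.02 and 0.36, and 0.99 and 1.38. That of ANKRD1 lay between -3.005 and -1.24, 0.98 and 2.74, and 2.22 and 3.98. The regulators called, in the order of comparisons above, ranged between 2 and 9, 3 and 4, 5 and 7, 5 and 7, 9 and 18, and 0 and 1, and the contractile genes between 7 and 32, 1 and 20, 1 and 9, 1 and 4, 10 and 27, and 0 and 3. All probe sets called ranged over the other alternatives between 369 and 3451, 324 and 3123, 872 and 6703, 544 and 1753, 1000 and 7593, and 0 and 2632, beside 1859, 1427, 2528, 1510, 4369 and 34 here. Before 21 dpi MYOG and MYF5 lay between the 18.7 and 48.1 percentiles of the probe sets of their arrays. No background level was computed, and small falls at the low end may be compressed.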
